A study of Mus musculus with 13 samples.

Results

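Hearts of mice treated with OMA1 ASO1, an antisense oligonucleotide (ASO) against the Oma1 transcript, were set against hearts of mice treated with CTRL ASO, a nontargeting ASO. The comparison took 10 of the 13 arrays of the series, chosen by their titles, with 5 OMA1 ASO1 hearts and 5 CTRL ASO hearts, and covered all 22206 transcript clusters of the array that are not control probe sets. Mice of both groups were 33 weeks old and had the genotype OMA1+/- C10 G58R: the G58R change was knocked in to the gene of CHCHD10 (C10), a small protein of the mitochondrial intermembrane space, and 1 Oma1 allele was disrupted, so the CTRL ASO hearts carried both alterations too. Both ASOs were given weekly under the skin at 50 mpk (mg per kg body weight), so treatment was systemic and not limited to the heart. RNA came from mouse hearts, 1 array was run for each, and p-values therefore measure the spread between these hearts. Signals are on the log2 scale, on which a difference of 1 is a 2-fold change, and a difference is OMA1 ASO1 minus CTRL ASO. The question the comparison addresses is which transcripts of a heart under C10 G58R stress differ between these ASO treatments. Whether a difference came from loss of Oma1 in the heart or from other effects of this ASO was not tested.

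OMA1 is a protease of the inner mitochondrial membrane that is nearly silent in healthy mitochondria and is activated by stress. It cleaves OPA1, which fuses the inner membrane, and DELE1, whose fragment leaves mitochondria and activates the kinase HRI. HRI phosphorylates the translation initiation factor eIF2alpha, which lowers general translation and raises that of ATF4. ATF4 and its partners then switch on genes for amino acid synthesis and uptake, tRNA charging, mitochondrial one-carbon metabolism and glutathione. This course is known as the mitochondrial integrated stress response (mtISR), and it has been described in hearts and skeletal muscle with mitochondrial disease.

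The 10 arrays were alike in overall signal, with medians of 5.24 to 5.34 and 9299 to 9580 clusters above background, taken as the brightest of 23 groups of background probes on that array (6.003 to 6.068). OMA1 ASO1 replicate 5 stood apart. On average it correlated at 0.974 with its 4 fellow arrays, and the other 9 arrays did so at 0.984 to 0.990. It lay more than 1 log2 unit above the mean of the other 4 OMA1 ASO1 arrays on 937 clusters and below it on 1300, whereas the same counts for the other 9 arrays, each against its own group, were 147 to 386 and 119 to 316. OMA1 ASO1 replicate 1 held signal of skeletal muscle: the 7 skeletal muscle markers measured averaged 10.02 on it and 5.78 to 6.01 on the other 4 OMA1 ASO1 arrays, against 5.79 to 5.99 on the CTRL ASO arrays. Y-linked genes were above background on 2 of 5 arrays of each group. The 10 markers of ventricular cardiomyocytes were above background on all arrays, with averages of 18.4 to 18.5 on OMA1 ASO1 arrays and 18.3 to 18.5 on CTRL ASO arrays. Where the count of called genes of a list given below changes without OMA1 ASO1 replicate 5, both are given.

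Oma1 itself, on chromosome 4, had signals of 5.48, 4.83, 4.44, 5.28 and 4.91 on the OMA1 ASO1 arrays, against 9.38, 9.13, 9.83, 9.35 and 9.36 on the CTRL ASO arrays. The groups were far apart, and none of the OMA1 ASO1 arrays but all of the CTRL ASO arrays exceeded background. Oma1 was therefore at least 10.5-fold lower with OMA1 ASO1 (limma, Benjamini-Hochberg adjusted p = 1.5e-07), and an exact permutation test of its signal gave a two-sided p of 0.00794, the smallest that 5 against 5 arrays allow. OMA1 ASO1 replicate 5 lay inside the range of the other 4 arrays of its group. Dele1, the OMA1 substrate that carries the signal to the cytosol, averaged 10.61 ± 0.26 with OMA1 ASO1 and 10.44 ± 0.39 with CTRL ASO (SD, n = 5 each). It did not pass the test (difference 0.17, limma adjusted p = 0.828). Chchd10 averaged 15.01 ± 0.22 with OMA1 ASO1 and 16.10 ± 0.40 with CTRL ASO (SD, n = 5 each), and the groups did not overlap. Its difference of -1.10 missed the threshold with all 10 arrays (limma adjusted p = 0.0118). It passed without OMA1 ASO1 replicate 5 (limma adjusted p = 0.00972) or without CTRL ASO replicate 5 (adjusted p = 0.00295), its lowest control. Opa1, whose protein OMA1 cleaves, differed by 0.54 (limma adjusted p = 0.12).

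Of the 22206 clusters, 170 (0.766%) had an adjusted p under 0.01 in limma, of which 143 (0.644%) were lower and 27 (0.122%) were higher with OMA1 ASO1. The lower clusters had a median difference of -1.74 and the higher ones of 1.49 (all clusters: 0.01). Of the called clusters, 57 were lower by more than 2 log2 units, against 8 that were higher by as much. The 2 groups did not overlap on 169 of the 170 called clusters (all clusters: 3.86%). The threshold itself favours large differences and separate groups, so these sizes and this separation describe the called clusters only. On 25 of the lower clusters every OMA1 ASO1 array was below background. For comparison with such counts in the lists below, 2684 of the 22206 clusters had an unadjusted p under 0.05 in limma. Without OMA1 ASO1 replicate 5, 261 clusters (1.18%) were called, 177 lower (0.797%) and 84 higher (0.378%). All 170 clusters kept their sign, and the call was shared by 139 lower clusters (of 143 with all arrays) and by 25 higher ones (of 27). Over the 143 lower clusters, which were chosen with replicate 5 in the fit, its median difference from the CTRL ASO mean was -1.74, beside -1.74 to -1.77 for the other 4 arrays, and it was the highest OMA1 ASO1 array on 51 of them, beside 17 to 29 for each of the others. Over the 27 higher clusters the same median was 1.16 for replicate 5 and 1.45 to 1.71 for the others. Across the 10 fits that each leave out 1 array, 86 clusters were called every time, 79 lower and 7 higher. Without OMA1 ASO1 replicate 1, the array with skeletal muscle signal, 98 clusters were lower and 13 higher.

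**Figure D1:**
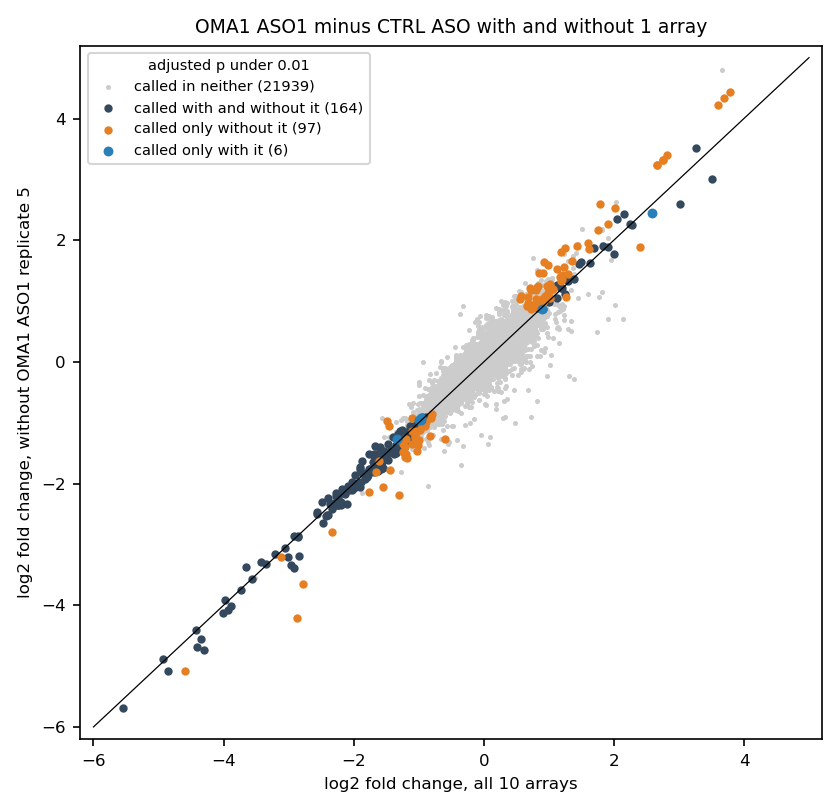
Log2 difference, OMA1 ASO1 minus CTRL ASO, of each of 22206 clusters with all 10 arrays (x axis) and without OMA1 ASO1 replicate 5 (y axis), coloured by the calls at an adjusted p under 0.01. The 164 clusters called both ways lie along the diagonal, and the 97 called only without replicate 5 lie mostly above it on the right and below it on the left.

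The transcription factors of the integrated stress response were the first group. Of 9 measured, 6 were lower (all clusters: 0.644%) and none higher, with a median difference of -1.91. Atf4, the central factor of the response, had 11.17, 10.90, 10.64, 11.15 and 12.70 with OMA1 ASO1, against 14.59, 14.49, 14.13, 13.94 and 13.60 with CTRL ASO. Its groups did not overlap, but replicate 5 was the highest OMA1 ASO1 array by over 1 log2 unit. The difference was -2.84 ± 0.33 (SE; limma adjusted p = 0.00033), and -3.19 without replicate 5 (adjusted p = 1.82e-06). Nupr1, a small stress-induced chromatin protein, had 7.46, 7.50, 7.28, 6.98 and 7.89 with OMA1 ASO1, against 11.41, 11.27, 11.89, 11.27 and 10.73 with CTRL ASO. This difference of -3.89 ± 0.22 (limma adjusted p = 6.48e-07) was the largest of the group.

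Atf5, whose worm relative ATFS-1 runs the mitochondrial unfolded protein response, had 7.10, 7.08, 8.17, 7.94 and 6.87 with OMA1 ASO1, against 11.70, 11.09, 10.77, 10.64 and 10.11 with CTRL ASO (difference -3.43 ± 0.31, limma adjusted p = 3.71e-05). Here replicate 5 was the lowest OMA1 ASO1 array, the reverse of its place in Atf4. Ddit3, which encodes the stress factor CHOP, averaged 9.03 ± 0.34 with OMA1 ASO1 and 11.06 ± 0.25 with CTRL ASO (SD, n = 5 each; limma adjusted p = 4.87e-05). Atf4, Atf5, Ddit3 and Nupr1 kept an adjusted p under 0.01 in each of the 10 leave-one-out fits.

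Cebpg, a partner of ATF4 on DNA, and Trib3, a pseudokinase induced by it and counted with these factors, were called less firmly. Cebpg had 9.37, 9.67, 9.94, 9.83 and 8.48 with OMA1 ASO1, against 12.13, 11.87, 11.04, 10.70 and 10.90 with CTRL ASO (difference -1.87, limma adjusted p = 0.00711). Trib3 was below background on every OMA1 ASO1 array and above it on every CTRL ASO array, and was at least 2.32-fold lower (limma adjusted p = 0.00553). Each lost its call in 8 of the 10 leave-one-out fits; Cebpg kept it without OMA1 ASO1 replicate 5 or CTRL ASO replicate 4, and Trib3 without OMA1 ASO1 replicate 5 or CTRL ASO replicate 5. The group's count was accordingly 4 to 6 over those fits, and 6 without OMA1 ASO1 replicate 5. Atf3, Cebpb and Jdp2 did not pass (limma adjusted p = 0.819, 0.593 and 0.856). Atf3 is also an immediate early gene. It had 12.96 on OMA1 ASO1 replicate 5 and 6.53 to 7.50 on the other 4 arrays of the group, against 7.68 to 11.12 on CTRL ASO arrays.

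**Figure D2:**
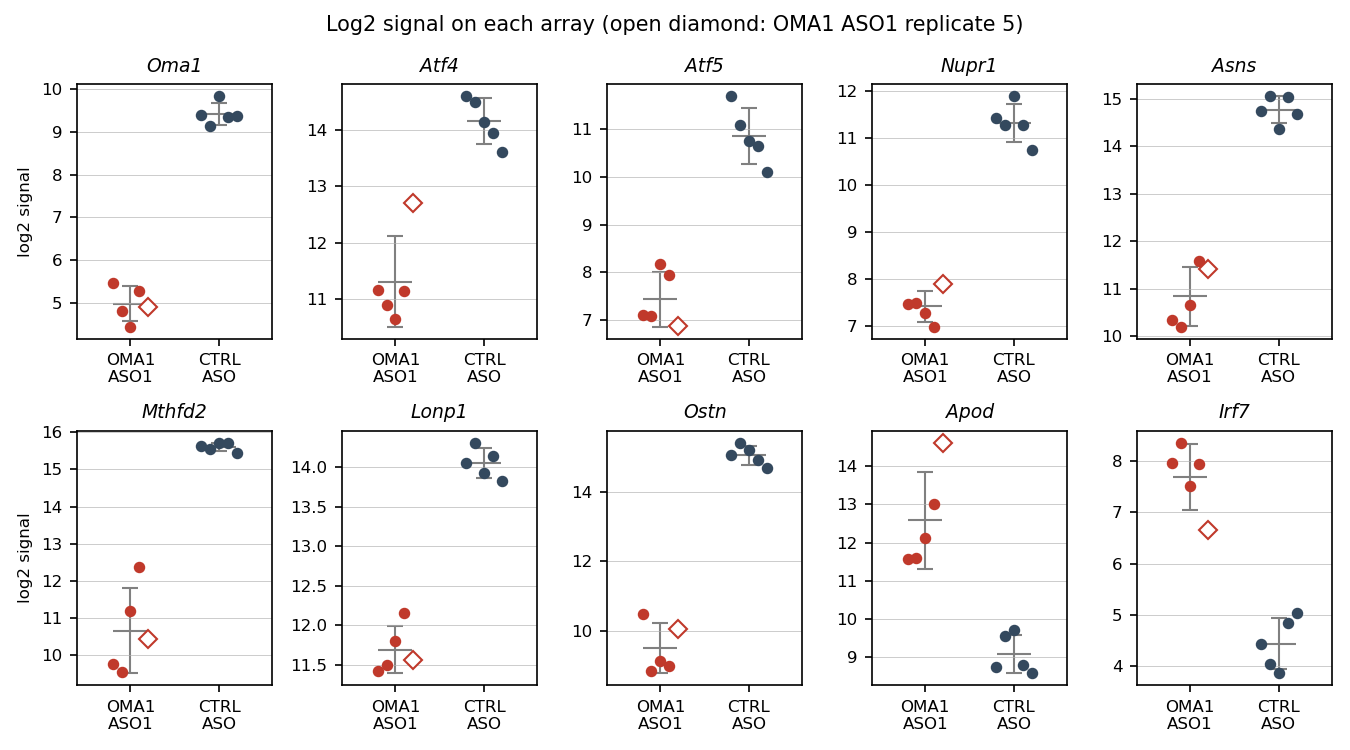
Log2 signal of 10 genes on each array, OMA1 ASO1 (red, left of each panel) and CTRL ASO (dark, right), with the group mean and SD in grey and OMA1 ASO1 replicate 5 as an open diamond. Oma1, Atf4, Atf5, Nupr1, Asns, Mthfd2, Lonp1 and Ostn are lower and Apod and Irf7 higher on all 5 OMA1 ASO1 arrays than on any CTRL ASO array.

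Genes of amino acid synthesis came next. Of 11 measured enzymes for serine, asparagine, proline and alanine, 5 were lower and none higher (all clusters: 0.644% lower), and the same number was lower in every leave-one-out fit. Asns, which makes asparagine, had 10.35, 10.20, 10.66, 11.58 and 11.41 with OMA1 ASO1, against 14.74, 15.05, 14.36, 15.03 and 14.67 with CTRL ASO. It was 15.3-fold lower on the linear scale (difference -3.93 ± 0.27, limma adjusted p = 3.25e-06). Phgdh, the first enzyme of serine synthesis from glucose, had 3.88 to 4.22 with OMA1 ASO1, below background on all arrays, against 7.20 to 8.54 with CTRL ASO, and was at least 3.42-fold lower (limma adjusted p = 9.95e-07). Psat1, the second enzyme of that pathway, differed by -3.57 (limma adjusted p = 1e-05). Aldh18a1, which starts proline synthesis, differed by -2.86 (limma adjusted p = 9.95e-07). Gpt2, the mitochondrial alanine transaminase, differed by -1.62 (limma adjusted p = 0.000151). OMA1 ASO1 replicate 5 was within the range of the other OMA1 ASO1 arrays in Asns, Phgdh and Psat1.

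The enzymes that load amino acids onto tRNAs were taken as separate cytosolic and mitochondrial lists. Of 20 cytosolic aminoacyl-tRNA synthetases measured, 10 were lower and none higher (all clusters: 0.644% lower, 0.122% higher). All 20 differences were negative, and the median was -0.97, against 0.01 for all clusters. Of 16 mitochondrial synthetases measured, limma called none in either direction (2 at an unadjusted p under 0.05), with a median of 0.04 and a range of -0.41 to 0.43. Only 12 of these 16 exceeded background on any array and 10 on all 10, whereas all 20 cytosolic ones exceeded it on all 10. Falls in the dimmer mitochondrial ones may therefore be understated. Eprs, the glutamyl-prolyl enzyme, had 14.73, 14.66, 14.67, 15.11 and 15.29 with OMA1 ASO1, against 16.98, 17.34, 16.74, 17.34 and 17.04 with CTRL ASO (difference -2.20 ± 0.19, limma adjusted p = 1.87e-05). Iars, for isoleucine, averaged a difference of -2.13 (limma adjusted p = 1.52e-05), Sars, for serine, of -2.24 (adjusted p = 3.94e-05) and Yars, for tyrosine, of -2.02 (adjusted p = 3.71e-05). Gars, for glycine, differed by -2.27 (limma adjusted p = 8.87e-05). Tars, for threonine, had 10.16, 10.01, 10.39, 10.52 and 10.05 with OMA1 ASO1, against 11.70, 11.75, 10.89, 11.54 and 11.25 with CTRL ASO (difference -1.20, limma adjusted p = 0.00455). The other called enzymes were those for cysteine, leucine, methionine and asparagine, Cars, Lars, Mars1 and Nars, which differed by -2.07 to -1.70. Only Tars lost its call in any leave-one-out fit, in 6 of 10 (without OMA1 ASO1 replicates 1, 2 or 3, or CTRL ASO replicates 1, 2 or 4).

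Amino acid transporters depended more on replicate 5. Of 21 measured, 3 were lower with all 10 arrays (all clusters: 0.644%) and 7 without OMA1 ASO1 replicate 5 (all clusters: 0.797%). Slc7a5, the large neutral amino acid carrier, had 5.75, 6.67, 6.37, 6.51 and 8.49 with OMA1 ASO1, against 10.83, 11.55, 10.85, 11.87 and 10.17 with CTRL ASO. The difference was -4.30 with all arrays (limma adjusted p = 8.66e-05) and -4.73 without replicate 5, the highest of its group. Slc7a3, a cationic amino acid carrier, was below background on every OMA1 ASO1 array and at least 5.38-fold lower (limma adjusted p = 1e-05). Slc7a11, the cystine carrier that feeds glutathione, exceeded background on 1 of 5 OMA1 ASO1 arrays (fitted difference -1.77, limma adjusted p = 0.00516) and lost its call without any one of OMA1 ASO1 replicates 2, 3 and 4 and CTRL ASO replicates 1, 2 and 5. Slc7a1, a second cationic carrier, had 8.11, 7.62, 7.24, 7.36 and 9.91 with OMA1 ASO1, against 10.99, 10.92, 9.69, 10.61 and 9.68 with CTRL ASO. Replicate 5 alone overlapped the controls, and the difference of -2.33 (limma adjusted p = 0.0164) became -2.79 (adjusted p = 0.000101) without it. The 3 further transporters called without replicate 5 were Slc3a2, the heavy chain that carries Slc7a5 to the membrane, Slc38a2 and Slc6a9.

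ATF4 with its C/EBP partners binds an amino acid response element whose core is TGATGNAA, and the promoters of the lower genes are of interest for it. The motif was searched on both strands in RefSeq promoters of 300 bases (250 before and 50 after each start, build GRCm38.p6), where 107 of 130 lower genes, 19 of 23 higher genes and 15691 of 19505 measured genes were matched. It stood in 9 of 134 promoters of lower genes (6.72%), in 0 of 24 of higher genes and in 647 of 19143 of all measured genes (3.38%). With the calls made without OMA1 ASO1 replicate 5, it stood in 11 of 173 promoters of lower genes (6.36%) and in 2 of 74 of higher genes (2.7%). In 5 of the 9 lower genes it lay in the 250 bases before the start. Only these 5 stretches are shown, those of a synthesis enzyme, a pair of tRNA synthetases, a transporter and a transcription factor of the groups above. In Iars, Yars and Trib3, which belong to the same groups, and in Arhgef2, no whole copy lay in those 250 bases. The stretches run 5′ to 3′ on the gene's strand and end at the base before the start, with the motif in capitals on either strand.
Asns, chr6:7693210-7693459, minus strand: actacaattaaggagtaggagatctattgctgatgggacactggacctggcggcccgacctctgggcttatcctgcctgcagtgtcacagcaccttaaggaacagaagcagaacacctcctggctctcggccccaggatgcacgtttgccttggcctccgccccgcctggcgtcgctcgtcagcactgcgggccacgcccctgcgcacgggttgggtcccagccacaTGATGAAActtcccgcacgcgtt
Gars, chr6:55037751-55038000, plus strand: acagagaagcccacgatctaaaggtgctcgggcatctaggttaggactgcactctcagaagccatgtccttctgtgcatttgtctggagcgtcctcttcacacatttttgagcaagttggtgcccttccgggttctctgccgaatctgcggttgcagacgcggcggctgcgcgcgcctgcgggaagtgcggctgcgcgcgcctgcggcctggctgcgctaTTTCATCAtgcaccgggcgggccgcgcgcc
Tars, chr15:11399659-11399908, minus strand: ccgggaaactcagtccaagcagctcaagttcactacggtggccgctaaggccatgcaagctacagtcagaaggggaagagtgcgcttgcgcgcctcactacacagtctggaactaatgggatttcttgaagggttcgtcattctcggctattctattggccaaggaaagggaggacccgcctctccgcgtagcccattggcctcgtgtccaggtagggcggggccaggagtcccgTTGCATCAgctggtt
Slc7a11, chr3:50443614-50443863, minus strand: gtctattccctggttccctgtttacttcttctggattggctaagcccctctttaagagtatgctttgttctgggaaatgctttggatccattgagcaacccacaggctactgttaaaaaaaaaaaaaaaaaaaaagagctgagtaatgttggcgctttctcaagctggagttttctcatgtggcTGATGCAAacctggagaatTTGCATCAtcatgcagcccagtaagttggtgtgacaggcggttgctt
Nupr1, chr7:126625471-126625720, minus strand: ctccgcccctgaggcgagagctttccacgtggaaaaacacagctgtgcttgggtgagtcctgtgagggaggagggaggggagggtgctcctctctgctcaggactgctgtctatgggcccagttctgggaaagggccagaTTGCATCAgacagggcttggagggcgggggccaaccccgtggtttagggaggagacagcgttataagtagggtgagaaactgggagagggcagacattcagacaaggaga

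In Asns the motif began 23 bases before the start on the gene's own strand, in Gars 30 bases and in Tars 15 bases before it on the opposite strand. Slc7a11 held a copy on each strand, 66 and 47 bases before the start, and Nupr1 a copy 110 bases before it. The signals of these 5 genes differed by -1.20 (Tars) to -3.93 (Asns). A match is a description of these letters only; binding was not measured.

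Mitochondrial one-carbon metabolism held 2 of the larger falls. Mthfd2, which oxidises the folate-bound carbon unit in mitochondria and is low in most adult tissues, had 9.77, 9.55, 11.20, 12.38 and 10.45 with OMA1 ASO1, against 15.62, 15.55, 15.71, 15.71 and 15.43 with CTRL ASO. The CTRL ASO hearts were within 0.28 of each other while the OMA1 ASO1 hearts spread over 2.83 log2 units, and the highest of them still lay far below any control. The difference was -4.94 ± 0.42, or 30.6-fold lower (limma adjusted p = 1.87e-05). Aldh1l2, which releases the carbon as CO2, exceeded background on 2 of 5 OMA1 ASO1 arrays and on all CTRL ASO arrays (fitted difference -3.65, limma adjusted p = 0.000111). Of 10 genes of the group these 2 were called (all clusters: 0.644% lower). Shmt2, which feeds it from serine, differed by -1.40 (limma adjusted p = 0.0215) and Mthfd1l by -0.98 (adjusted p = 0.148); Shmt2 passed without CTRL ASO replicate 5 only. Of 10 cytosolic folate enzymes limma called none (1 at an unadjusted p under 0.05), with differences of -0.67 to 0.48.

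Of 15 genes of glutathione and cysteine metabolism, 2 were lower (all clusters: 0.644%), and 3 without OMA1 ASO1 replicate 5 (all clusters: 0.797%). Cth, which makes cysteine from cystathionine, had 5.32 to 6.05 with OMA1 ASO1, below background on all but 1 array, against 7.05 to 8.40 with CTRL ASO (fitted difference -2.17, limma adjusted p = 0.00078). Slc25a39, which imports glutathione into mitochondria, differed by -1.69 (limma adjusted p = 0.00192). Chac1, which degrades glutathione, had 4.07, 5.68, 4.08, 5.19 and 5.23 with OMA1 ASO1, against 9.34, 9.71, 7.12, 7.09 and 6.55 with CTRL ASO. It was at least 3.83-fold apart but missed the threshold (limma adjusted p = 0.0108), which it passed without OMA1 ASO1 replicate 5 or CTRL ASO replicate 5. Gpx1, a glutathione peroxidase, differed by 1.06 (limma adjusted p = 0.035). The hormone gene Fgf21, a known target of the response, had 3.23 to 4.21 with OMA1 ASO1, against 4.20 to 6.60 with CTRL ASO, and exceeded background only on CTRL ASO replicate 1.

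Lonp1, the main protease of the mitochondrial matrix, was the one called gene of 19 mitochondrial chaperones and proteases (all clusters: 0.644% lower). It had 11.43, 11.50, 11.80, 12.16 and 11.56 with OMA1 ASO1, against 14.06, 14.32, 13.93, 14.15 and 13.83 with CTRL ASO, a difference of -2.37 ± 0.18 (limma adjusted p = 7.39e-06). Hspa9, the matrix Hsp70, differed by -0.87 and missed the threshold (limma adjusted p = 0.0108), as did Clpb, the disaggregase of the intermembrane space (-0.96, adjusted p = 0.0266). Of 16 genes of the endoplasmic reticulum unfolded protein response, which can also feed ATF4, limma called none (2 at an unadjusted p under 0.05), with a median of -0.04. OMA1 ASO1 replicate 5 was above all other 9 arrays on 7 of these 16 (all clusters: 16%). Without it the median was -0.12 and still none was called. Of 12 genes of growth control linked to the response, 2 were lower (all clusters: 0.644%). Without OMA1 ASO1 replicate 5, 3 were (all clusters: 0.797%), with Myc, described below, added. Deptor, an inhibitor of mTOR, differed by -1.54 (limma adjusted p = 0.00184), and Eif4ebp1, the translation repressor 4E-BP1, by -1.17 (adjusted p = 0.00726). The call of Eif4ebp1 was kept only without OMA1 ASO1 replicate 5 among the leave-one-out fits. Deptor kept its call in all 10. Among 16 nucleolar genes of ribosome assembly, 14 had negative differences with a median of -0.58. Pes1 alone was called (-1.13, limma adjusted p = 0.00153), beside 0.644% of all clusters lower. An unadjusted p under 0.05 in limma was reached by 12 of the 16, beside 2684 of all 22206 clusters.

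**Figure D3:**
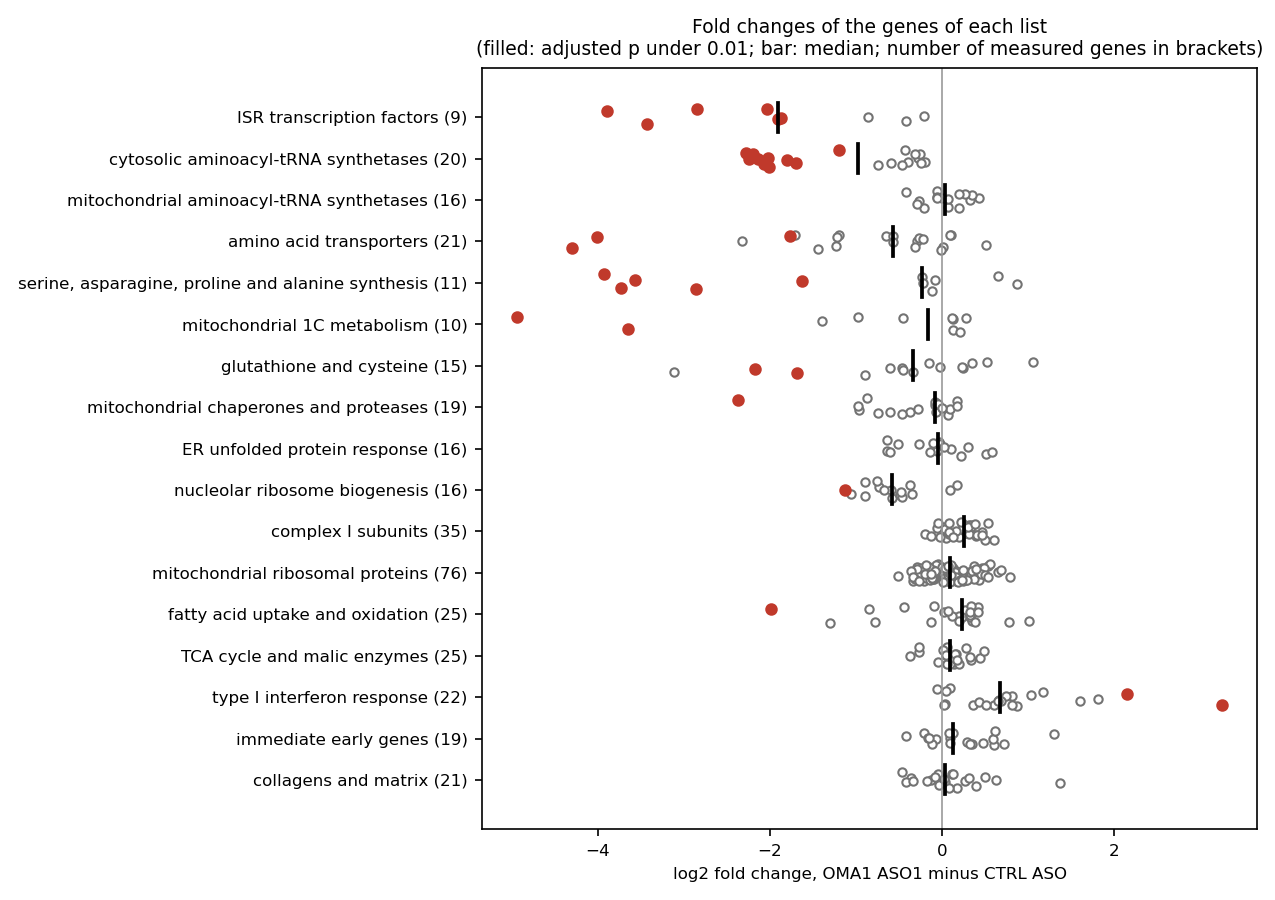
Log2 difference, OMA1 ASO1 minus CTRL ASO (x axis), of the measured genes of 17 lists (rows), filled red where the adjusted p was under 0.01, with the list's median as a black bar. Called genes gather in the upper rows (integrated stress response factors, cytosolic synthetases, amino acid synthesis and transport) and none is called among mitochondrial synthetases, complex I subunits, mitochondrial ribosomal proteins or genes of the TCA cycle.

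No complex I subunit or complex IV tissue isoform was called. Of 35 complex I subunits measured none passed in limma (8 at an unadjusted p under 0.05, beside 2684 of all 22206 clusters). Their differences were -0.20 to 0.61, with 30 of 35 positive (median 0.26, against 0.01 for all clusters). Nor did any of 76 mitochondrial ribosomal proteins (median 0.10, 9 at an unadjusted p under 0.05) or of 25 genes of the TCA cycle (median 0.10, 4 at an unadjusted p under 0.05). Complex IV isoforms ran both ways without a call, with 5 of 10 at an unadjusted p under 0.05. Cox7a1 and Cox8b, the heart isoforms, differed by 0.95 and 0.78 (limma adjusted p = 0.0289 and 0.0478), and Cox8a and Cox6a1, the ubiquitous isoforms, by -0.99 and -1.03 (adjusted p = 0.0126 and 0.0961). Cox8a passed without CTRL ASO replicate 5, its lowest control. Of 25 genes of fatty acid uptake and oxidation, 1 was lower (all clusters: 0.644%) and none higher. Without OMA1 ASO1 replicate 5, 1 was lower and 1 higher (all clusters: 0.797% lower, 0.378% higher). Acot2, a thioesterase that frees fatty acids from CoA in mitochondria, had 14.06, 15.02, 14.25, 14.02 and 13.67 with OMA1 ASO1, against 16.35, 16.14, 16.24, 16.14 and 16.10 with CTRL ASO (difference -1.99, limma adjusted p = 0.000155). Acaa2, the last thiolase of the cycle, differed by 1.01 (limma adjusted p = 0.0101), just outside the threshold, and passed without OMA1 ASO1 replicate 5 (adjusted p = 0.00876) and without CTRL ASO replicate 3. Decr1, which handles unsaturated acids, differed by 0.78 (limma adjusted p = 0.0292).

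In glycolysis, 2 of 18 genes were lower (all clusters: 0.644%) and none higher. Without OMA1 ASO1 replicate 5, 2 were lower and 1 higher (all clusters: 0.797% lower, 0.378% higher). Pfkp, the platelet form of phosphofructokinase, differed by -2.003 (limma adjusted p = 0.00398), and Slc2a1, the GLUT1 glucose carrier of the fetal heart, by -1.57 (adjusted p = 0.00519). Eno3, the muscle enolase, had 16.43, 16.23, 16.33, 16.46 and 15.69 with OMA1 ASO1, against 15.25 to 15.59 with CTRL ASO. The groups did not overlap, yet Eno3 passed only without replicate 5 (difference 0.97, limma adjusted p = 0.00269; 0.83 and 0.0264 with it). Pfkp lost its call in 5 and Slc2a1 in 8 of the 10 leave-one-out fits: Pfkp without OMA1 ASO1 replicates 1, 3 or 4 or CTRL ASO replicates 1 or 2, and Slc2a1 in all but those without OMA1 ASO1 replicate 5 or CTRL ASO replicate 1.

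Outside metabolism, the largest measured difference was that of Ostn, which encodes osteocrin, a peptide secreted by muscle that spares natriuretic peptides from their clearance receptor. It had 10.48, 8.84, 9.14, 8.99 and 10.07 with OMA1 ASO1, against 15.05, 15.41, 15.19, 14.91 and 14.69 with CTRL ASO, a difference of -5.54 ± 0.30, or 46.7-fold (limma adjusted p = 3.78e-07). Ostn was the one called gene among 17 of cardiac stress and natriuretic peptides (all clusters: 0.644% lower). B4galnt2, a glycosyltransferase, and Vmn2r3, which is annotated as a vomeronasal receptor, were below background on every OMA1 ASO1 array and were at least 12.9-fold and at least 8.84-fold lower (limma adjusted p = 6.47e-05 and 1.07e-05). Cyb5r1, a cytochrome b5 reductase, had 5.76 to 6.52 with OMA1 ASO1, above background on 2 arrays, against 8.88 to 10.79 with CTRL ASO (fitted difference -3.98, limma adjusted p = 1.33e-05). Eda2r, a receptor of the TNF family and a p53 target, exceeded background on 1 of 5 OMA1 ASO1 arrays and on all CTRL ASO arrays (fitted difference -2.39, limma adjusted p = 0.000212). It was the one called gene of 14 p53 targets (all clusters: 0.644% lower), of which 3 were called without replicate 5 (all clusters: 0.797% lower). Ostn, B4galnt2, Vmn2r3, Cyb5r1 and Eda2r kept their calls in all 10 leave-one-out fits.

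Of 19 activin, TGF-beta and BMP ligands and their binding proteins, 2 were lower with all 10 arrays (all clusters: 0.644%). Without OMA1 ASO1 replicate 5, 3 were lower (all clusters: 0.797%), and 7 of the 19 differences with all arrays were positive. Inhba, the subunit of activin A, had 4.93 to 5.78 with OMA1 ASO1, below background throughout, against 8.79, 8.99, 7.03, 9.85 and 9.14 with CTRL ASO, and was at least 6.66-fold lower (limma adjusted p = 0.000353). Tgfb2, a TGF-beta ligand, differed by -1.82 (limma adjusted p = 0.00608) but was called in only 3 of 10 leave-one-out fits, those without OMA1 ASO1 replicate 5 or CTRL ASO replicates 3 or 4. Bmp10, an atrial ligand, had 9.48, 7.21, 8.46, 6.61 and 10.45 with OMA1 ASO1, against 12.25, 14.56, 10.22, 14.24 and 13.88 with CTRL ASO. Its difference of -4.59 just missed the threshold (limma adjusted p = 0.0101) and passed without OMA1 ASO1 replicate 5 (-5.09, adjusted p = 0.00209) or without CTRL ASO replicate 3. The other 6 atrial markers measured were not called. Of 12 G protein-coupled receptors 2 were lower in every leave-one-out fit (all clusters with all 10 arrays: 0.644%), while the list's median was 0.11. Chrm2, the cardiac muscarinic receptor that slows the heart, had 6.74, 6.99, 5.94, 5.23 and 6.18 with OMA1 ASO1, against 8.73, 8.84, 9.47, 10.09 and 9.25 with CTRL ASO (difference -3.06, limma adjusted p = 0.000135). Ptgfr, a prostaglandin F receptor, differed by -2.03 (limma adjusted p = 0.00144).

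Of 25 cardiac ion channel genes, 1 was lower and 1 higher (all clusters: 0.644% lower, 0.122% higher). Without OMA1 ASO1 replicate 5, 1 was lower and 2 higher (all clusters: 0.797% lower, 0.378% higher). Kcnj12, an inward rectifier of the ventricle, differed by -1.63 (limma adjusted p = 0.00521) and Kcnj3, the GIRK1 subunit that acetylcholine opens through the muscarinic receptor, by 1.20 (adjusted p = 0.00593). Kcnj3 had 11.62 to 11.85 on all OMA1 ASO1 arrays, against 10.22, 10.11, 10.82, 10.37 and 11.15 with CTRL ASO. Kcnj12 lost its call in 6 leave-one-out fits (without OMA1 ASO1 replicate 3 or any one CTRL ASO array) and Kcnj3 in 7 (all but those without OMA1 ASO1 replicate 5 or CTRL ASO replicates 3 or 5). Scn4b, a sodium channel subunit, had 7.45, 6.97, 7.53, 7.21 and 6.19 with OMA1 ASO1, against 5.65 to 6.09 with CTRL ASO, and was called only without replicate 5 (difference 1.40, limma adjusted p = 0.000336; 1.18 and 0.0179 with it).

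Far fewer clusters were higher than lower. Apod, an apolipoprotein of the lipocalin family, had 11.57, 11.60, 12.11, 13.00 and 14.63 with OMA1 ASO1, against 8.74, 9.54, 9.70, 8.79 and 8.58 with CTRL ASO (difference 3.51 ± 0.49, limma adjusted p = 0.00155). Ptgds, a lipocalin that makes prostaglandin D, had 15.42, 15.39, 15.66, 16.47 and 17.90 with OMA1 ASO1, against 12.42, 13.08, 13.35, 13.89 and 12.98 with CTRL ASO (difference 3.02, limma adjusted p = 0.00177). Clu, the extracellular chaperone clusterin, differed by 2.00 (limma adjusted p = 0.00363). In all 3, replicate 5 was the highest OMA1 ASO1 array, and without it the differences were 3.00, 2.59 and 1.77 with smaller adjusted p-values (7.56e-05, 0.000136 and 0.00214 in limma). Clu lost its call without OMA1 ASO1 replicate 3 or CTRL ASO replicates 1, 2 or 3; Apod and Ptgds never did.

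Rpl3l, a muscle form of a ribosomal protein, had 10.87, 10.68, 11.08, 11.15 and 10.55 with OMA1 ASO1, against 9.12, 9.01, 9.75, 8.99 and 8.30 with CTRL ASO (difference 1.83, limma adjusted p = 0.000709). OMA1 ASO1 replicate 1, which held skeletal muscle signal, lay in the middle of its group. Smco1, Scgb1c1 and Abhd18 were higher by 1.91, 1.63 and 1.47 (limma adjusted p = 0.00178, 0.000785 and 0.00381). Rpl3l, Smco1 and Scgb1c1 were called in every leave-one-out fit, and Abhd18 only in those without OMA1 ASO1 replicate 5 or CTRL ASO replicates 1 or 5.

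Immune genes were among the rises. Of 22 type I interferon genes 2 were higher (all clusters: 0.122%), 21 of 22 differences were positive, and the median was 0.68. Only 14 of the 22 exceeded background on any array and 6 on all 10. The list's mean signal was 6.24 to 6.63 on OMA1 ASO1 replicates 1 to 4. On replicate 5 it was 5.58, inside the range of the CTRL ASO arrays (5.17 to 5.82). Irf7, the factor that amplifies interferon signals, had 7.97, 8.37, 7.52, 7.94 and 6.66 with OMA1 ASO1, against 4.42, 4.03, 3.85, 4.84 and 5.03 with CTRL ASO. It was below background on every CTRL ASO array and at least 3.13-fold higher (limma adjusted p = 4.78e-05). Ifit3, an antiviral protein, had 10.05, 11.10, 10.43, 10.83 and 9.26 with OMA1 ASO1, against 8.10, 7.37, 8.14, 7.995 and 9.27 with CTRL ASO (difference 2.16, limma adjusted p = 0.00623). It was the one called gene of the whole array whose groups overlapped, through OMA1 ASO1 replicate 5 and CTRL ASO replicate 5, and it kept its call only without one or the other of these among the leave-one-out fits. Without OMA1 ASO1 replicate 5 the list had 4 calls, with Bst2 (difference 1.96, limma adjusted p = 0.000115) and Xaf1 (1.41, adjusted p = 0.00184) added and a median of 0.88. Over the other 9 leave-one-out fits it had 1 to 3.

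Gbp4, an interferon-induced GTPase, differed by 2.24 (limma adjusted p = 0.00521), Ctss, the lysosomal protease cathepsin S of antigen presentation, by 2.05 (adjusted p = 0.00708), and H2-Q4 and H2-T23, nonclassical MHC class I genes, by 1.49 and 1.39 (adjusted p = 0.00293 and 0.00712). The Gbp and H2 genes have near-identical copies whose transcripts a probe set may share, so their identity is uncertain. Ctss had 10.87, 10.64, 10.62, 10.79 and 9.22 with OMA1 ASO1, against 8.79, 8.64, 7.24, 8.31 and 8.90 with CTRL ASO, and was called in no leave-one-out fit but that without replicate 5 (difference 2.35, limma adjusted p = 0.000284). Gbp4 lost its call in 6 such fits (without OMA1 ASO1 replicates 1, 3 or 4 or CTRL ASO replicates 1, 2 or 4), H2-T23 in 8 (all but those without OMA1 ASO1 replicate 5 or CTRL ASO replicate 5) and H2-Q4 in 3 (without OMA1 ASO1 replicate 4 or CTRL ASO replicates 1 or 2).

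Macrophage genes were called in part. Of 9 markers measured 2 were lower (all clusters: 0.644%): Cd163, the haemoglobin scavenger receptor of resident macrophages, had 4.28 to 4.99 with OMA1 ASO1, against 6.36 to 7.27 with CTRL ASO, at least 1.77-fold lower (limma adjusted p = 3.9e-05), and Vsig4, a complement receptor, was at least 1.37-fold lower (adjusted p = 6.15e-05). Both were below background on all OMA1 ASO1 arrays. Csf1r, the receptor that macrophages need to survive, differed by -1.09 with overlapping groups (limma adjusted p = 0.337), and the list's median was -0.41 with all arrays and -0.15 without OMA1 ASO1 replicate 5. The list ran both ways, with 5 of the 9 differences negative and 4 positive. Only 3 of the 9 markers exceeded background on all 10 arrays. In bulk heart RNA, fewer cells of a type and less RNA per cell cannot be told apart. The mean signal of the 9 markers was 5.95 to 7.09 on OMA1 ASO1 arrays, lowest on replicate 5, against 6.78 to 7.55 on CTRL ASO arrays. Cxcl13, a chemokine that draws B cells, had 7.14, 6.15, 6.41, 6.67 and 8.01 with OMA1 ASO1, against 10.58, 11.54, 9.81, 12.39 and 12.11 with CTRL ASO (difference -4.41, limma adjusted p = 0.000111). Markers of B and plasma cells were not called (5 measured, 1 of them above background on any array), and neither were those of T and NK cells (8 measured, 1 above background on any array). Of the markers of fibroblasts, endothelium, smooth muscle, neutrophils, red cells, adipocytes, skeletal muscle and Schwann cells limma called none, with 4 at an unadjusted p under 0.05 for smooth muscle, 3 for endothelium, 1 for fibroblasts and 0 for the others. Cd163, Vsig4 and Cxcl13 kept their calls in all 10 leave-one-out fits.

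What set OMA1 ASO1 replicate 5 apart was led by immediate early genes, a class of genes that cells switch on within minutes of a stimulus. Of 19 measured, 16 were higher on it than on any of the other 9 arrays (all clusters: 16%), and their mean signal was 10.7 on replicate 5 and 7.27 to 7.61 on the other 4 OMA1 ASO1 arrays, against 7.29 to 8.12 on CTRL ASO arrays. Fos had 11.73 on replicate 5 and 3.75, 4.11, 4.41 and 3.87 on the other OMA1 ASO1 arrays, against 4.24, 4.24, 5.33, 3.55 and 3.98 with CTRL ASO. Egr1, a zinc finger factor of the same kind, had 17.14 on replicate 5 and 8.02 to 9.36 on the others of its group, against 8.69 to 11.66 with CTRL ASO. These values describe 1 heart; no test applies to them. Among the 10 clusters farthest above the mean of the other 4 by signal, Egr1 lay 8.14, Irs2 6.72, Cdkn1a 6.67 and Btg2 6.15 log2 units above it, from signals above background on every array. Thbs1, a matrix glycoprotein, Fos, Csrnp1 and Nr4a1 were below background on all of the other 4, so their distance is known only as a bound; on replicate 5 they had 13.57, 11.73, 11.05 and 11.64. The same 10 held Gadd45g, with 12.03 on replicate 5 and 1 of the other 4 above background, and Eif2s3y, which is Y-linked and was above background on other arrays of both groups.

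Other genes were low on that array. Aqp7, the glycerol channel, had 5.63 on replicate 5 and 11.55 to 12.30 on the other 4 OMA1 ASO1 arrays, against 10.39 to 11.65 with CTRL ASO. Col3a1, a fibrillar collagen, had 4.53 on it and 9.35 to 11.30 on the others, against 7.35 to 10.92 with CTRL ASO. Of 21 collagen and matrix genes 12 were lower on replicate 5 than on any other array (all clusters: 17.9%) and 3, Thbs1 among them, were higher (all clusters: 16%). The mean of the 6 fibroblast markers was 11.4 on replicate 5 and 12.2 to 12.9 on the other OMA1 ASO1 arrays, against 12.0 to 13.0 with CTRL ASO. Also far below the mean of the other 4 were the interferon-induced genes Gm4841 and Cxcl9, which were below background on replicate 5 and above it on the other 4, Tgtp2 (-3.998) and the clock output gene Dbp (-4.65). Dbp had 9.61 on replicate 5 and 13.17 or more on each of the other 9 arrays.

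**Figure D4:**
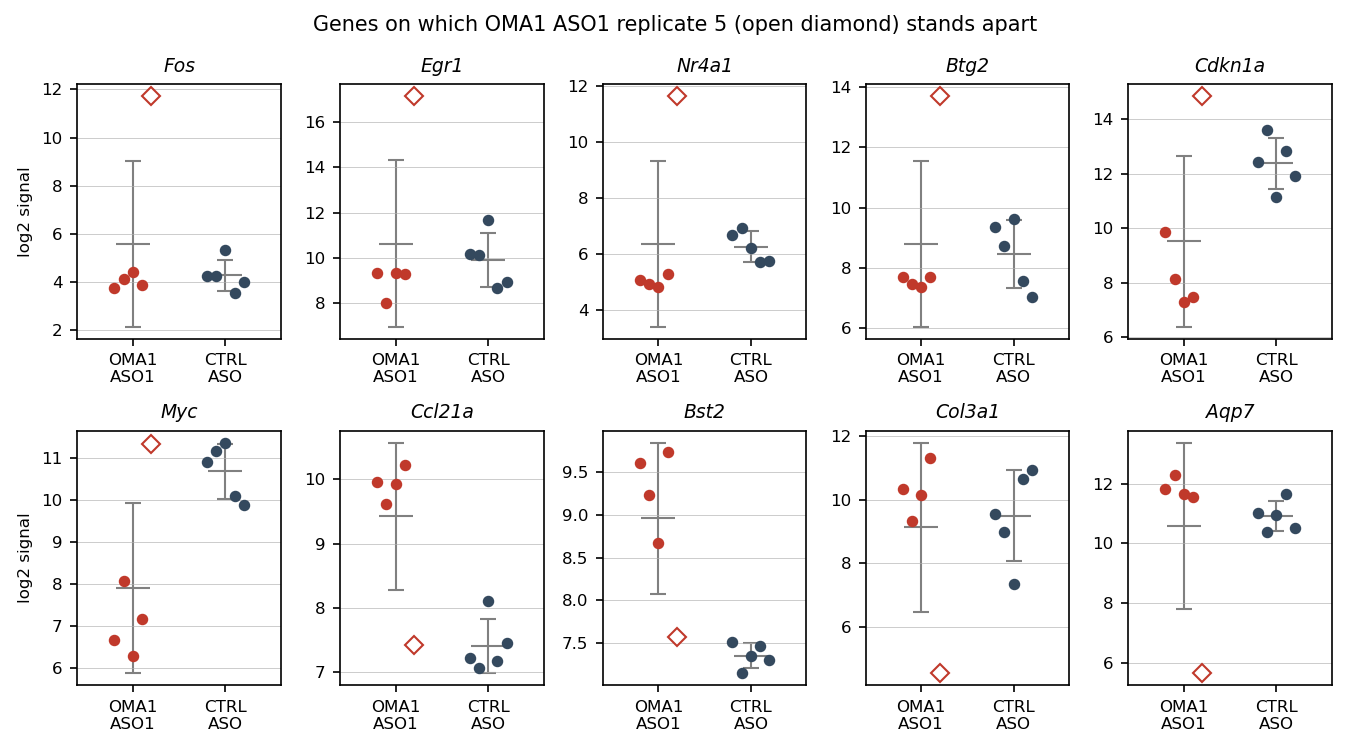
Log2 signal of 10 genes on each array, OMA1 ASO1 (red, left of each panel) and CTRL ASO (dark, right), with the group mean and SD in grey and OMA1 ASO1 replicate 5 as an open diamond. Replicate 5 is the highest array of its group for Fos, Egr1, Nr4a1, Btg2, Cdkn1a and Myc, and the lowest for Ccl21a, Bst2, Col3a1 and Aqp7.

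Several calls were made only without replicate 5. Myc, the growth factor-induced transcription factor, had 6.66, 8.07, 6.28 and 7.16 on OMA1 ASO1 replicates 1 to 4 and 11.34 on replicate 5, against 10.91, 11.18, 11.37, 10.09 and 9.88 with CTRL ASO. The difference was -2.78 with it (limma adjusted p = 0.0896) and -3.64 without it (adjusted p = 6.02e-05). Cdkn1a, the cell cycle inhibitor p21, had 9.85, 8.14, 7.29 and 7.48 on replicates 1 to 4 and 14.86 on replicate 5, against 12.45, 13.62, 11.13, 12.85 and 11.92 with CTRL ASO. Its difference was -2.87 with it (limma adjusted p = 0.307) and -4.21 without it (adjusted p = 0.000322). In both genes 4 hearts lay below every control and 1 above all or nearly all of them.

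The chemokine gene Ccl21a had 9.95, 9.62, 9.92 and 10.22 on OMA1 ASO1 replicates 1 to 4 and 7.42 on replicate 5, against 7.22, 7.06, 8.11, 7.17 and 7.45 with CTRL ASO. Its difference was 2.02 with replicate 5 (limma adjusted p = 0.0306) and 2.53 without it (adjusted p = 1.87e-05). Ccl21b, Ccl21c and Gm10591 gave 3.24, 3.24 and 4.34 without it (limma adjusted p = 3.14e-05, 3.14e-05 and 0.000596). Ccl21a, Ccl21b and Ccl21c are near-identical copies, and the clusters of Ccl21b and Ccl21c had the same values on every array, so the 4 clusters are no separate evidence and which copy was measured is uncertain. Tgtp2, a T cell GTPase induced by interferon, differed by 2.59 without replicate 5 (limma adjusted p = 0.000108) and by 1.79 with it (adjusted p = 0.273).

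Of all 97 clusters called only without replicate 5, 38 were lower and 59 higher, so the share of higher calls was the part that moved. The 6 clusters called only with it, 4 lower and 2 higher, stayed close to the threshold. They included Cct5, a subunit of the cytosolic chaperonin (difference -0.99, limma adjusted p = 0.00726 with replicate 5 and 0.01, just above the threshold, without it), Tecrl, a gene named for its likeness to an enoyl-CoA reductase (0.90, 0.00771 and 0.011), Ssbp2, a DNA-binding protein (-1.33, 0.00771 and 0.0106), and Exoc4, of the exocyst (-0.97, 0.0096 and 0.0134). These calls were also lost in most other leave-one-out fits, all 10 for Cct5 and 9 each for Tecrl, Ssbp2 and Exoc4. Leaving out any other single array lowered the counts, to 82 to 126 lower clusters and 7 to 20 higher ones, and only replicate 5 raised them. The fewest were left without CTRL ASO replicate 2, with 82 lower and 7 higher.

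**Figure D5:**
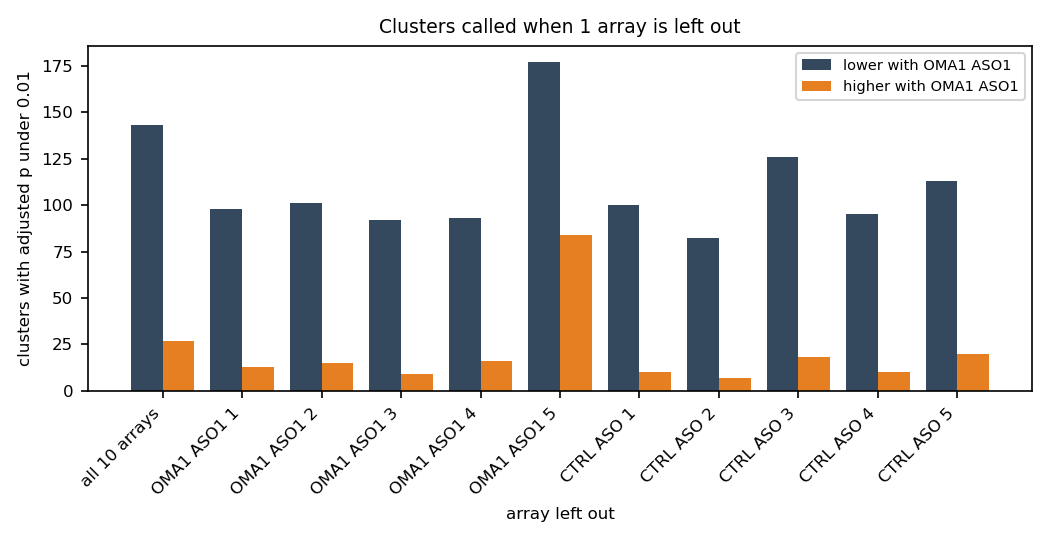
Number of clusters with an adjusted p under 0.01 (y axis), lower (dark) and higher (orange) with OMA1 ASO1, with all 10 arrays and with 1 array left out in turn (x axis). Without OMA1 ASO1 replicate 5 the counts are 177 and 84, against 143 and 27 with all arrays, and leaving out any other array gives fewer of both.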

How the data were processed

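Each heart gave 1 Clariom S Mouse array. Per the study's methods, the authors summarised probes to clusters in Transcriptome Analysis Console with signal space transformation and robust multiple-array averaging, and the deposited log2 signals of that normalization were used as they stood; such summaries compress large differences, and probes near background understate them. The sources used here name no genome build for the clusters. The series' other OMA1 ASO group was not analysed here, and 6640 probe sets that serve as controls of the array were not tested. Of the 22206 clusters, platform annotation gave 1 symbol to 19572 (19505 distinct) and none to 2634; a gene with several clusters was described by its brightest.

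OMA1 ASO1 arrays were compared with CTRL ASO arrays in limma 3.58.1 (R 4.3.3; lmFit, eBayes with no trend) with Benjamini-Hochberg adjustment over all clusters and a threshold of 0.01. A group below background on all its arrays has only a bound. For it, "at least N-fold" sets the brighter group's mean against the dimmer group's, with each dimmer array taken at the higher of its background and the cluster's own signal. The comparison, its 45 gene lists and the rule for named genes (the target and its partners, all stress response factors, up to 4 members of smallest p in each list, the 12 largest falls and rises, the 10 clusters farthest above and below on OMA1 ASO1 replicate 5, the 8 of smallest p that its removal gained or lost, and genes of printed promoters) were chosen with earlier results of these data known. Tables and motif searches were made in Python 3.11.15 with pandas 2.3.3. On simulated data for this comparison (22206 clusters, 5 against 5 arrays), 44 of 50 clusters changed by -2 and 43 of 50 changed by 2 on the log2 scale were called, 16 and 17 of 50 for changes of -1 and 1, with 0 unchanged clusters called. The simulated noise was normal and independent between clusters, no array deviated as a whole, and only brighter clusters were changed. The simulation therefore does not show how the fit performs with an array like OMA1 ASO1 replicate 5. Alternatives were trend and robust fitting, filters on dim clusters, renewed quantile normalization, median centring, array weights, Y-linked signal as a covariate, the replicate number as a block, a threshold of 0.05 and leaving out each array. The number of arrays limits the precision.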

Additional observations from a re-analysis of the deposited data

Results flagged for a closer look

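Among the 234 sets of 5 arrays examined (each named gene in each group), 28 held an array whose gap to its nearest neighbour, divided by the whole range of the 5, was above Dixon's critical value for 5 samples, which chance alone exceeds in about 1 of 20 sets (11.7 here). OMA1 ASO1 replicate 5 was the array in 23 of the 28, other OMA1 ASO1 arrays in 3 and CTRL ASO arrays in 2. Some of the genes were named for that array's distance, so the count is a description.

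Replicate 5 was the highest OMA1 ASO1 array for the immediate early genes Fos (ratio 0.917), Egr1 (0.854), Nr4a1 (0.931), Btg2 (0.948) and Atf3 (0.849), and for Csrnp1 (0.968), Thbs1 (0.861), Irs2 (0.828) and Gadd45g (0.821). It was also the highest for Atf4 (0.744), with 12.70 against 10.64 to 11.17 on the other 4, for Slc2a1 (0.728) and for Clu (0.751). It was the lowest for Aqp7 (0.887), Col3a1 (0.711), Cxcl9 (0.737), Ctss (0.846), Exoc4 (0.819), Ccl21a (0.786), Ccl21b and Ccl21c (0.778 each, from identical values), and for the interferon-induced Gbp2 (0.723), Gbp7 (0.820) and Psme1 (0.767).

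On other arrays, OMA1 ASO1 replicate 4 was lowest for Fgf21 (0.878), below background like the rest of its group, and for Tgfb2 (0.715), and OMA1 ASO1 replicate 2 was highest for Gbp4 (0.757). CTRL ASO replicate 5 was lowest for Cox8a (0.760), with 13.21, and CTRL ASO replicate 2 highest for Csrnp1 (0.786).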

How the results depend on the processing

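Oma1 kept its direction and its call under every alternative, and none of the 66 called genes among the 104 named ones that were tested changed sign under any. With 1 array left out, 89 to 261 clusters were called, 82 to 177 lower and 7 to 84 higher, the fewest without CTRL ASO replicate 2 and the most without OMA1 ASO1 replicate 5; 43 of the 66 genes were called in all 10 such fits. The rises moved most with the fit: trend and robust fitting called 51 clusters higher and array weights 68, against 27. A threshold of 0.05 gave 365 calls, 252 lower and 113 higher. The replicate block, which pairs same-numbered arrays, gave 102 calls, 91 lower and 11 higher, and lost 23 of the 66 genes. The numbers share no stated litter or batch, same-numbered arrays deviated together at correlations of -0.112 to 0.0807, and none correlated best with its own number, so they are taken as names only. Array weights and leaving out OMA1 ASO1 replicate 5 added 18 and 21 of the 38 named genes not called; Y-linked signal as a covariate lost 7 genes of the 66, trend and robust fitting 2 and quantile normalization 1. The cause was not tested. Clusters near background (6.003 to 6.068) have bounds only.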

Other observations

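The genes of this part of the text were chosen after their values were seen. Outside the lists, 3 genes that serve translation were lower with OMA1 ASO1. Xpot, which exports tRNAs from the nucleus, had 10.17, 9.55, 9.45, 9.51 and 9.73 with OMA1 ASO1, against 12.06, 12.23, 11.60, 12.41 and 11.60 with CTRL ASO (difference -2.30, limma adjusted p = 3.6e-05). Rpl3, the general form of the ribosomal protein whose muscle form is Rpl3l, had 14.68, 14.89, 15.18, 14.98 and 15.63 with OMA1 ASO1, against 16.24, 16.69, 16.08, 16.50 and 16.60 with CTRL ASO. It was lower (difference -1.35, limma adjusted p = 0.00239), whereas Rpl3l was higher (1.83, adjusted p = 0.000709), and neither pair of groups overlapped. Eif2s2, a subunit of the initiation factor eIF2, differed by -1.01 (limma adjusted p = 0.00372). Xpot was called in all 10 leave-one-out fits, Rpl3 in all but that without CTRL ASO replicate 2, and Eif2s2 in 3 (without OMA1 ASO1 replicate 5 or CTRL ASO replicates 3 or 4).

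Besides the interferon and antigen presentation genes called with all 10 arrays, 5 more passed only without OMA1 ASO1 replicate 5. Gbp3 had 9.34, 10.14, 9.33 and 9.98 on OMA1 ASO1 replicates 1 to 4 and 7.59 on replicate 5, against 6.92, 6.78, 7.66, 7.70 and 8.57 with CTRL ASO. Its difference was 2.17 without replicate 5 (limma adjusted p = 0.00177) and 1.75 with it (adjusted p = 0.0718). Gbp7 and Gbp2, further interferon-induced GTPases, differed by 1.64 and 1.25 without it (limma adjusted p = 0.00129 and 0.00543), Psme1, a proteasome activator subunit, by 0.92 (adjusted p = 0.0072), and H2-D1, a classical MHC class I gene, by 1.33 (adjusted p = 0.00387). With all 10 arrays none of these 5 passed (limma adjusted p = 0.0164 to 0.585).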
